A study of Mus musculus with 2 samples.

Results

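The genes described here lie beside a breakpoint of a large inversion on mouse chromosome 2, on the side where the homeobox genes Dlx1 and Dlx2 lie. They are the 10 genes Gorasp2, Tlk1, Mettl8, Dcaf17, Cybrd1, Dync1i2, Slc25a12, Hat1, Metap1d and Itga6, taken by symbol and chromosome from a table of 23157 genes, and 62 of its 64053 transcripts belong to them. They were chosen by their place beside the breakpoint and with their read values in both libraries known, so that levels and ratios are given as a description, with no test. The table comes from strand-specific, poly(A)-selected RNA-seq of distal forelimbs of mouse embryos of strain C57Bl6CBAF1 at E12.5, when digits form. One genotype was wild type and the other carried the HoxD Inv(TpSB1-Itga6) allele, in which 2.4 Mb of the chromosome is inverted. The study's methods state that the embryos with inversions were homozygous. Each genotype had 1 library, made from a pool given as 3 pairs of forelimbs, so that no difference has a replicate check. Itga6 gives one breakpoint its name, and the exact position of that breakpoint relative to the exons of Itga6 was not used here.

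An inversion moves genes and regulatory sequences next to new neighbors while it leaves the number of gene copies as it was, so the genes at its ends are where a new context is most direct. In developing limbs, Hoxd genes are controlled by enhancers spread over large distances within a topologically associating domain, a stretch of chromatin that contacts itself more than it contacts its surroundings. The genes examined here are mostly housekeeping genes: a histone acetyltransferase, a chromatin kinase, a dynein subunit, a Golgi stacking protein and enzymes and carriers of mitochondria. Itga6 is an exception, as the receptor for laminin that anchors epithelia and endothelia to their basement membrane.

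Values are read numbers that the authors scaled with 1 factor per library, called normalized reads here, summed over the transcripts of a gene. The libraries held 9280660 wild-type reads and 9466154 inversion reads, and 16756 genes reached a mean of 10 normalized reads. The log2 ratio is inversion over wild type with a pseudocount of 1, so that changes at few reads come out too small. The 95% intervals were computed from the recovered whole reads (exact Clopper-Pearson), cover counting error only and compare 2 libraries rather than 2 genotypes. Markers of forelimb and distal limb, among them Tbx5, Prrx1 and Hoxa13, had reads in both libraries. Embryo sex differed between the pools: 4 Y-linked genes summed to 836 and 2785 normalized reads, and Xist had 2640 and 12.8. Embryo sex and genotype cannot be told apart in these libraries.

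Some sequences help to read the transcript results that follow. They were read from GRCm38, the build of the GENCODE M21 annotation, whereas the reads were mapped to NCBIM37. The first pair borders a stretch of Metap1d that is an intron in its coding transcript and exon in other transcripts. It lies at chr2:71509891-71511411 on the plus strand (1521 bases). Capitals mark bases of this stretch and lower case marks the coding exons on either side. The printed windows are chr2:71509851-71509990 and chr2:71511312-71511451.
Metap1d 5′ edge: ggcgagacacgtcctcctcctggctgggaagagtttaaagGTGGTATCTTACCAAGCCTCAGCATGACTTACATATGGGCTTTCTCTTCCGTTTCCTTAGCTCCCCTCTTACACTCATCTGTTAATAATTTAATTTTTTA
Metap1d 3′ edge: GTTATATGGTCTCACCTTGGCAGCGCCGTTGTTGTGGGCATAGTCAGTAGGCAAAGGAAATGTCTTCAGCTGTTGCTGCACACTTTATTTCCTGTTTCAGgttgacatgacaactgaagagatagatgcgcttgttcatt
The stretch opens with GT and closes with AG, the letters at the ends of most introns. The second pair shows the alternative ends of the coding sequence of Itga6, which give the cytoplasmic tails of the alpha6A and alpha6B integrin forms. Lower case marks the last 30 bases of the exon that both forms share. Capitals mark the coding part of the next exon up to the stop codon TAG, 108 bases for alpha6A at chr2:71853534-71853641 and 162 bases for alpha6B at chr2:71855854-71856015, both on the plus strand.
Itga6 alpha6A end: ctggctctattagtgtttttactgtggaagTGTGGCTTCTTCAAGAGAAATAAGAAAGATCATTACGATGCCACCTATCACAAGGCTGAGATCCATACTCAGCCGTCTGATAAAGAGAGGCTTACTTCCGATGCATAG
Itga6 alpha6B end: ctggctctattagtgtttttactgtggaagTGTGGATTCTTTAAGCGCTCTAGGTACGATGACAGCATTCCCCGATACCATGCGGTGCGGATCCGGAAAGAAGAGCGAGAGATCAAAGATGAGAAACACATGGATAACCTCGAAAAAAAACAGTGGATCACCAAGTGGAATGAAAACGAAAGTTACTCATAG
A transcript that changed strongly, Itga6-207, carries the alpha6A end.

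Most of the neighbors had nearly the same level in both libraries, and Metap1d and Itga6 stood above the rest. For the 10 genes the median log2 ratio was -0.02, as it was for all genes. Of these ratios, 5 lay above 0 and 5 below (46.6% of all genes were above 0). Only Metap1d was higher by 2-fold or more in the inversion library, which is 1 of 10 genes where the share over all genes was 3.99%. No neighbor was at least 2-fold lower, against 0.483% of all genes. The counting interval lay above 0 for 2 genes (Metap1d and Itga6; 16.7% of all genes), below 0 for 2 genes (Hat1 and Cybrd1; 13.0% of all genes) and included 0 for the remaining 6. It thus left out 0 for 4 of 10 genes, against 29.7% of all genes. Without Metap1d and Itga6, the ratios of the 8 other genes ran from -0.23 to 0.22 with a median of -0.06. The plot of levels shows every gene in chromosomal order.

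**Figure D1:**
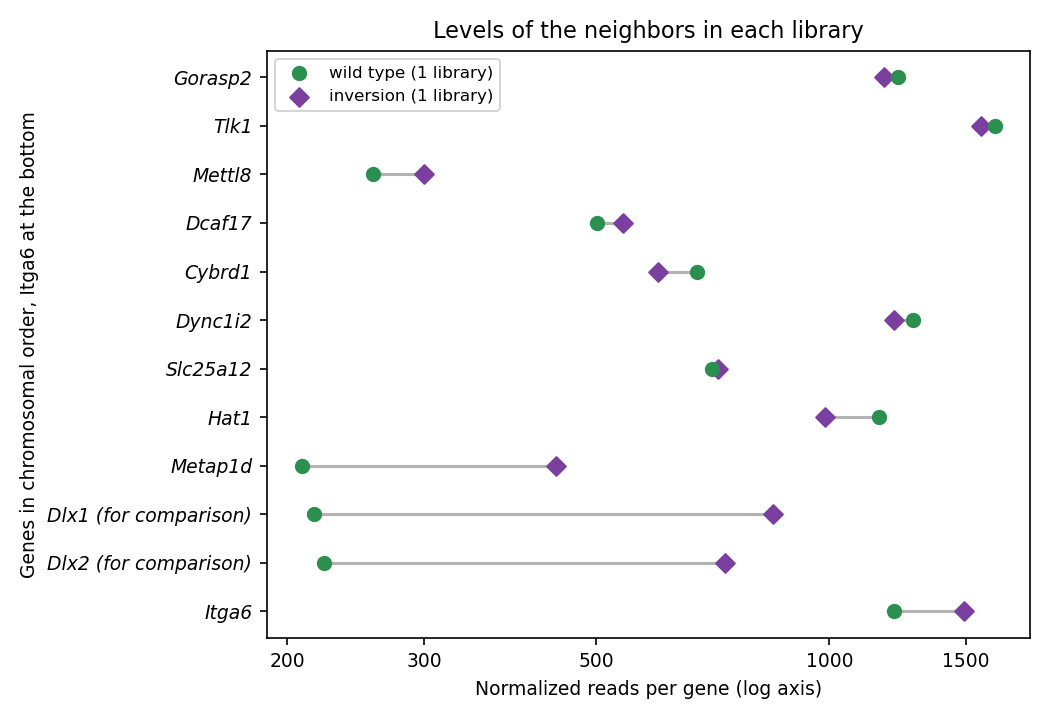
Normalized reads (log axis) of each neighbor, with Dlx1 and Dlx2 for comparison, in the wild-type library (circles) and the inversion library (diamonds), 1 library each, ordered along the chromosome. Metap1d goes from 209 to 443 beside Dlx1, whereas the symbols of Gorasp2, Tlk1 and Slc25a12 nearly touch.

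Metap1d encodes a mitochondrial methionine aminopeptidase, an enzyme that removes the first methionine of proteins made in that organelle. It lies at chr2:71453276-71525194 on the plus strand, and its end is 2.918 kb from the start of Dlx1. It had 206 wild-type reads and 449 inversion reads, or 209 and 443 normalized reads. The log2 ratio was 1.08 (95% interval 0.85 to 1.33). Of 5510 genes with a mean within 2-fold of its own, 1.11% had a ratio as high or higher. For comparison, Dlx1, a homeobox transcription factor gene, went from 217 to 845 normalized reads (log2 ratio 1.96). Its partner Dlx2 went from 223 to 734 (log2 ratio 1.72). The ratio of Metap1d was thus below those of both Dlx genes, and its interval ended below the start of theirs.

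The higher level of Metap1d was carried mostly by transcripts that hold the stretch shown above, and not by its coding transcript. Metap1d-201, the coding transcript of 10 exons, had 77 wild-type reads and 83 inversion reads (log2 ratio 0.07, 95% interval -0.39 to 0.54). Metap1d-205, a processed transcript that keeps the whole stretch and is otherwise close to the coding one, had 53 and 196 reads. Its log2 ratio was 1.83 (95% interval 1.41 to 2.32). Metap1d-204, whose first exon starts inside the stretch at 71510258, had 16 and 70 reads, with a log2 ratio of 2.03 (95% interval 1.29 to 2.98). These 2 transcripts together had 69.9 and 263 normalized reads, and their log2 ratio was 1.90 (95% interval 1.52 to 2.31). Their share of the reads of the gene was 33.5% in wild type and 59.2% in the inversion. The 4 transcripts without the stretch summed to 139 and 181 normalized reads, with a ratio of 0.38 on the log2 scale (95% interval 0.05 to 0.71).

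Among these 4, the short transcript Metap1d-206 had 6 wild-type reads and 18 inversion reads (log2 ratio 1.41, 95% interval 0.15 to 3.17). It lies at chr2:71515412-71516284 and its middle exon (71515637-71515800) is an exon of the coding Metap1d-201 as well. Its other exons (71515412-71515542 and 71515898-71516284) lie in introns of Metap1d-201, outside the stretch. Metap1d-202 ends in a long exon (71514624-71515955) that covers the same coding exon and intron of Metap1d-201 on both sides. It had 39 and 57 reads and an interval that includes 0 (-0.10 to 1.14). The same holds for Metap1d-203, with 15 and 25 reads (95% interval -0.28 to 1.73). The transcripts share most of their exons. How reads that fit several transcripts were divided between them is not given in the sources used here, so the transcript values depend on that division. The antisense gene Dlx1as reaches back from Dlx1 into the span of Metap1d. It had 5 wild-type reads and 20 inversion reads (log2 ratio 1.78, 95% interval 0.51 to 3.73). No exon base of any Metap1d transcript is shared with an exon of Dlx1as, and the nearest end of Dlx1as lies 5043 bases beyond the stretch. Whether strand was used in the assignment of reads is not given in the sources used here.

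**Figure D2:**
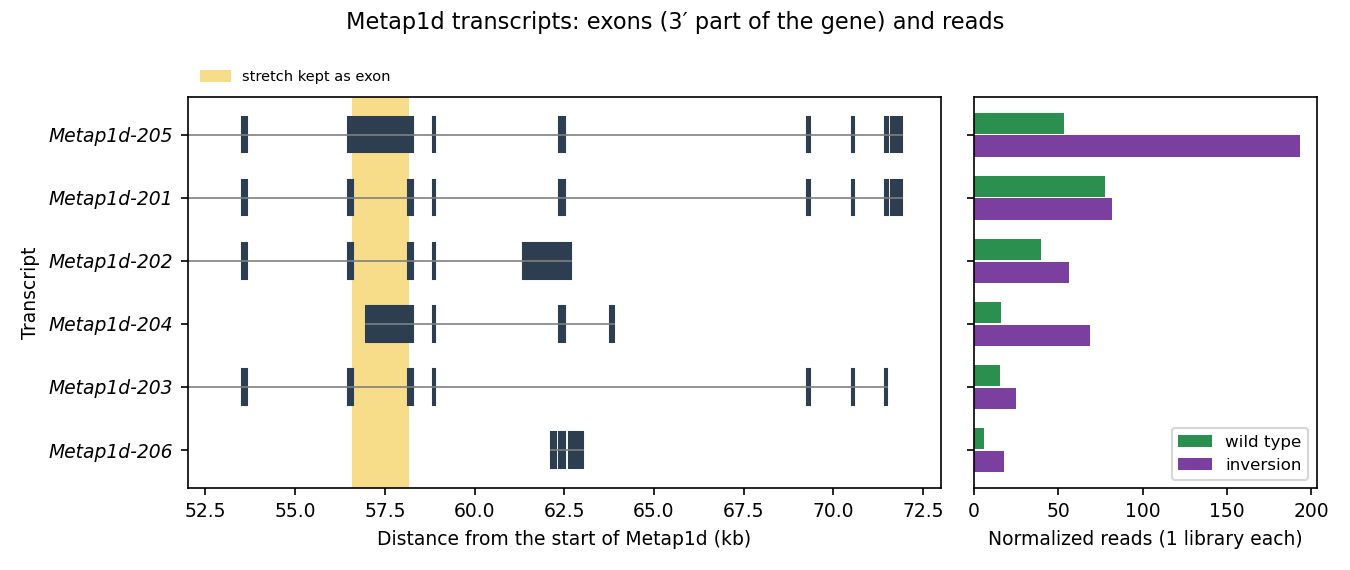
Left, exons (blocks) of the 6 Metap1d transcripts in the 3′ part of the gene, by distance from its start in kb, with the stretch of 1521 bases in yellow. Right, normalized reads of each transcript in the wild-type (green) and inversion (purple) libraries; Metap1d-205 goes from 53.7 to 194 while the coding Metap1d-201 stays at 78.0 and 82.0.

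Itga6 encodes the alpha6 subunit of laminin-binding integrins, which pairs with the beta1 or beta4 subunit. It lies at chr2:71786929-71858416 on the plus strand, 240.174 kb from the nearest end of Dlx2. The gene had 1196 wild-type reads and 1509 inversion reads. The log2 ratio was 0.30 (95% interval 0.19 to 0.41), and 4.96% of 4593 genes of similar level had a ratio as high or higher. The full-length coding transcripts changed little. Itga6-202, which ends with alpha6B, had 359 and 374 reads (log2 ratio 0.02, 95% interval -0.19 to 0.24). Itga6-201, which ends with alpha6A, had 322 and 307 reads (log2 ratio -0.10, 95% interval -0.34 to 0.13).

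Most of the difference lay in a pair of transcripts that were scarce in wild type. As for Metap1d, the transcript values depend on how reads that fit several transcripts were divided, which is not given. Itga6-207 had 25 wild-type reads and 149 inversion reads, a log2 ratio of 2.49 (95% interval 1.92 to 3.21). It is annotated as coding with an incomplete start, and begins at 71826762, inside the gene. Its last exon, chr2:71853534-71854951 (1418 bases), starts as the alpha6A exon and then runs on for 1288 bases that are intron in Itga6-201. After the stop codon of alpha6A, shown above, this exon is 3′ UTR. The other transcript, ENSMUST00000036783, had 2 wild-type reads and 99 inversion reads, a ratio of 48.2 with a counting interval from 13.0 to 404. It is absent from GENCODE M21, so neither its exons nor its type were used here. Of transcripts with a mean within 2-fold, 0.464% had a log2 ratio at or above that of Itga6-207 and 0.456% one at or above that of ENSMUST00000036783.

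Together this pair had 27 and 248 reads, which is 2.26% of the normalized reads of Itga6 in wild type and 16.4% in the inversion. Without the pair, Itga6 had 1184 and 1245 normalized reads and a log2 ratio of 0.07 (95% interval -0.04 to 0.19). Most of the higher total of Itga6 was thus contained in the pair. The 2 transcripts with the alpha6A exon summed to 351 and 450 normalized reads (log2 ratio 0.36, 95% interval 0.15 to 0.56), and Itga6-207 alone accounted for that. Itga6-203, a processed transcript at the 3′ end with the highest level of all, had 421 and 496 reads (log2 ratio 0.20, 95% interval 0.01 to 0.39). Itga6-208 had 32 and 44 reads, and Itga6-206, at the 5′ end, 33 and 39, both with intervals that include 0. Itga6-205 had 2 reads and 1 read.

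**Figure D3:**
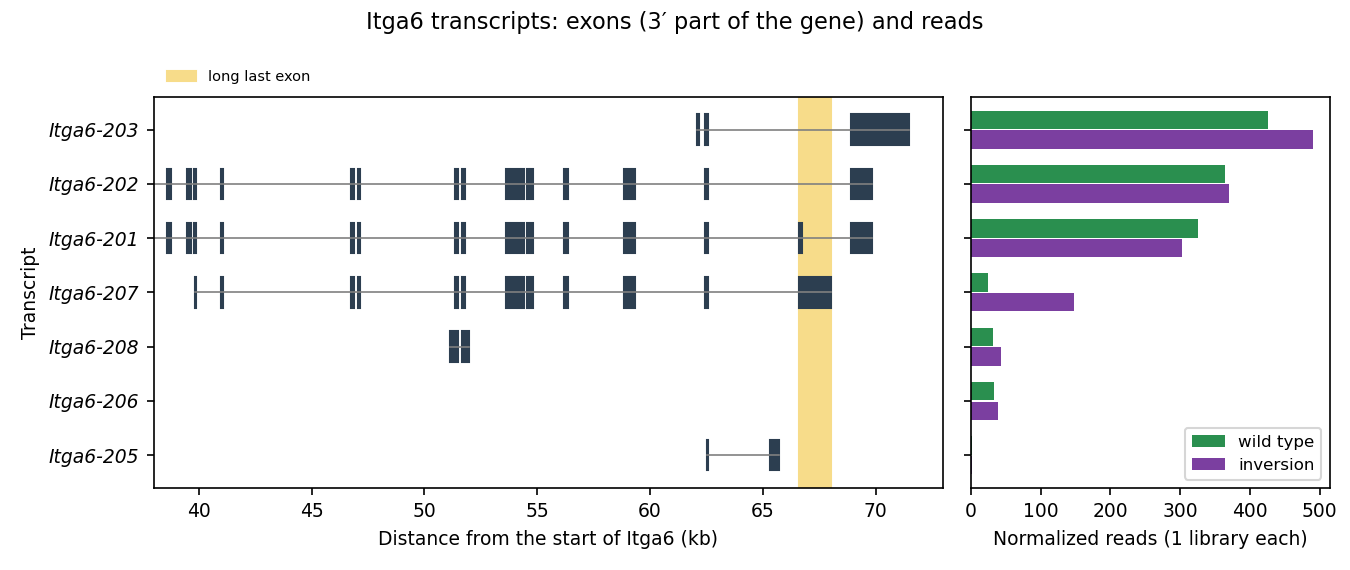
Left, exons (blocks) of the Itga6 transcripts found in GENCODE M21, in the 3′ part of the gene by distance from its start in kb, with the last exon of Itga6-207 in yellow; Itga6-206 lies outside this window and ENSMUST00000036783 has no exons to draw. Right, normalized reads in the wild-type (green) and inversion (purple) libraries; Itga6-207 goes from 25.3 to 147 while Itga6-202 stays at 364 and 369.

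The genes of chromatin were close to 0 or below it. Hat1, a histone acetyltransferase that acts on newly made histone H4, ends 11.653 kb before Metap1d starts, at chr2:71388958-71441622 on the plus strand. It had 1144 wild-type reads and 999 inversion reads, the lowest log2 ratio of the 10 genes (-0.23, 95% interval -0.36 to -0.11). Among genes of similar level, 94.2% had a ratio as high or higher. Each of its 4 transcripts was lower in the inversion library. The coding Hat1-201 had 763 and 687 reads, and Hat1-203, with the lowest ratio of the 4, had 82 and 54. Tlk1, a kinase that acts on the histone chaperone Asf1, lies at chr2:70712407-70825728 on the minus strand. It had 1615 and 1587 reads (log2 ratio -0.06, 95% interval -0.16 to 0.04).

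Apart from Metap1d, the mitochondrial and metal-handling neighbors were also close to 0. Slc25a12, the aspartate-glutamate carrier of the inner mitochondrial membrane (chr2:71271063-71367749, minus strand), had 697 and 727 reads and a log2 ratio of 0.02 (95% interval -0.13 to 0.18). Its short processed transcript Slc25a12-203 had 11 and 24 reads (log2 ratio 1.02, 95% interval 0.01 to 2.27), the sole transcript of these 8 genes that was at least 2-fold higher with a mean of at least 10. Cybrd1, a ferric reductase of the cell surface (chr2:71117923-71142926, plus strand), had 666 and 609 reads in 1 transcript. Its log2 ratio of -0.16 had an interval that ended just below 0 (-0.33 to -0.0044). Mettl8, a methyltransferase of mitochondrial transfer RNA (chr2:70964561-71055583, minus strand), had 255 and 304 reads. Its log2 ratio was 0.22 (95% interval -0.03 to 0.46). Within Mettl8, the coding Mettl8-202 had 137 and 139 reads, whereas Mettl8-206, which retains an intron, had 14 and 28. Mettl8-201 had 0 and 11 reads, at a mean below 10, and its counting interval starts at a ratio of 2.45.

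Dcaf17 starts 0.16 kb from Mettl8 on the opposite strand, so that both genes point away from each other. It encodes a substrate receptor of a CUL4-DDB1 ubiquitin ligase and lies at chr2:71055744-71095858. It had 495 wild-type reads and 548 inversion reads (log2 ratio 0.11, 95% interval -0.07 to 0.29). Both genes of this head-to-head pair were above 0 with intervals that include 0. The cell transport genes were slightly below 0. Dync1i2, an intermediate chain of cytoplasmic dynein (chr2:71211706-71263303, plus strand), had 1266 and 1225 reads (log2 ratio -0.08, 95% interval -0.20 to 0.03). Gorasp2, a protein that stacks Golgi cisternae (chr2:70661576-70712636, plus strand), had 1211 and 1192 reads (log2 ratio -0.06, 95% interval -0.18 to 0.06). Of its transcripts only Gorasp2-205, with 23 and 22 reads, reaches the 3′ end of Tlk1. That overlap is 230 bases, and reads there can be told apart by strand alone.

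**Figure D4:**
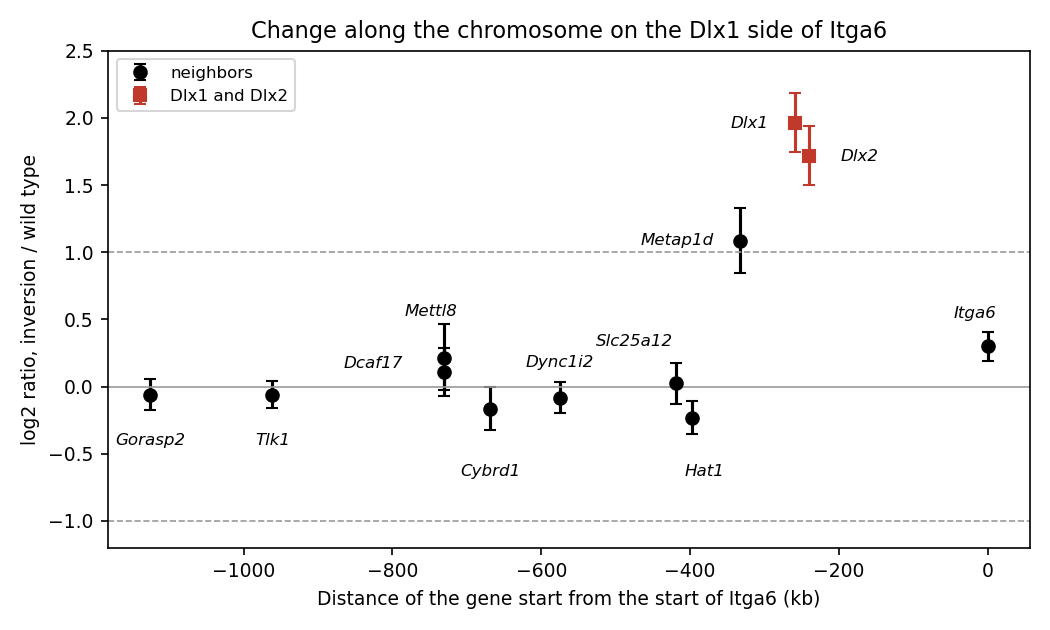
Log2 ratio of inversion over wild type for each neighbor (black circles) and for Dlx1 and Dlx2 (red squares) against the distance of the gene start from the start of Itga6 in kb; bars are 95% counting intervals and dashed lines mark 2-fold. Metap1d (1.08) is the one neighbor above the upper dashed line, and Hat1, the next gene away from Dlx1, is at -0.23.

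Along the chromosome, the ratios did not fall off gradually with distance from Itga6. Metap1d starts 334 kb from the start of Itga6 and Hat1 398 kb, and their ratios were 1.08 and -0.23 with intervals that do not overlap. From Slc25a12 at 419 kb to Gorasp2 at 1125 kb, the ratios stayed between -0.16 and 0.22. The other genes of the table among these neighbors were Gm13641, with 2 reads in each library, and Gm1631, with 0 reads and 1 read.

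In single transcripts, differences of 2-fold or more were found in 3 of the neighbors. Of the 62 transcripts, 54 reached a mean of 10 normalized reads, with a median log2 ratio of -0.02. In this set, 6 were higher by 2-fold or more in the inversion library, where the share over all transcripts was 6.66%. None was at least 2-fold lower, against 2.19%. The 6 were Metap1d-204, Metap1d-205 and Metap1d-206, Itga6-207, ENSMUST00000036783 of Itga6, and Slc25a12-203. By annotated type, 4 were processed transcripts (8.23% of all such transcripts were at least 2-fold higher), 1 was coding (4.14%) and 1 could not be matched (6.37%). None of the 5 transcripts of the neighbors typed as retained intron was among them (13.6% of all such transcripts). These 5 are too few to be set against that share. Metap1d-205, typed as a processed transcript, also keeps a stretch that is an intron in the coding transcript. The 1 nonsense-mediated decay transcript, of Dcaf17, was not among the 6 either (6.96% of all such transcripts). Over all genes, retained-intron transcripts had a median log2 ratio of 0.20 and coding ones of -0.03. A steady main coding transcript beside another transcript that was at least 2-fold higher was not confined to the neighbors. It was seen in 3 of 9 neighbors with several transcripts (Itga6, Metap1d and Slc25a12), and in 15.3% of 8080 genes whose main coding transcript was within 1.5-fold. The part of this general difference between the libraries in the values of Metap1d was not tested.

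**Figure D5:**
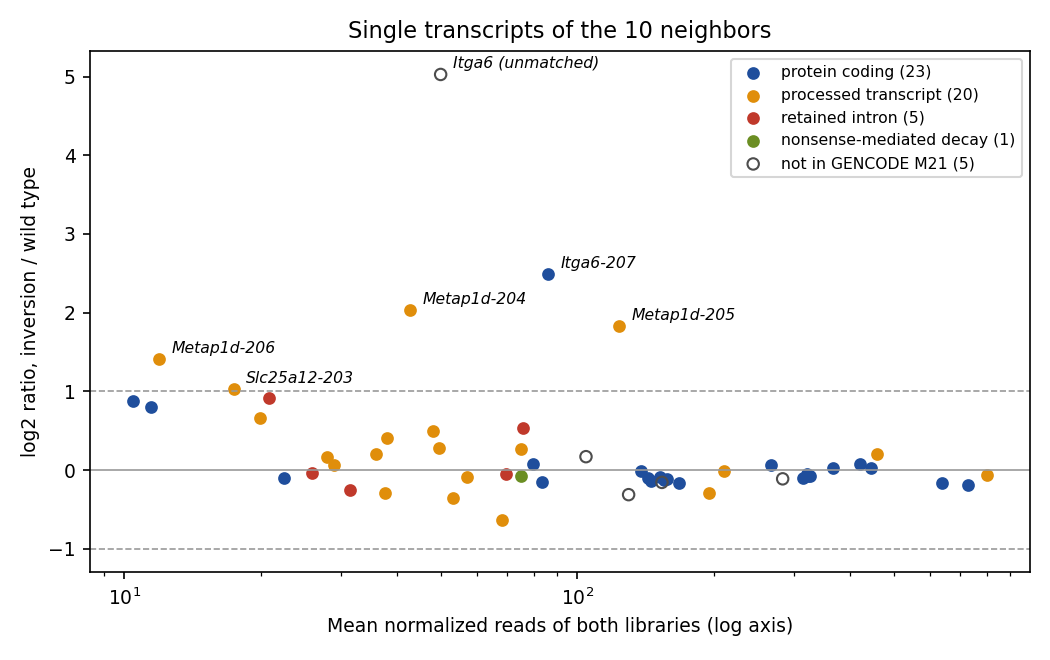
Log2 ratio of inversion over wild type against the mean normalized reads of both libraries (log axis) for the 54 transcripts of the neighbors whose mean is 10 or more, colored by annotated type; dashed lines mark 2-fold. The 6 named transcripts lie above the upper dashed line and none lies below the lower one.

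Levels can be compared between genes only per length, and this was done for the coding transcript with the highest mean of each gene, in normalized reads per kb. Hat1 had the highest value of these single transcripts, at 490.2 in wild type and 431 in the inversion, which placed it at percentile 97.4 and 97.0 of 16540 genes. Gorasp2 (149 and 142), Cybrd1 (126 and 113) and Tlk1 (103 and 105) followed, and Itga6 was at 87.5 and 88.9. The order depends on how reads were split among similar coding transcripts. When all coding transcripts of a gene were summed, each per its own length, Gorasp2 (4 transcripts) was at 574 and 546, Hat1 (2 transcripts) at 537 and 472, Dync1i2 (6 transcripts) at 377 and 346, and Itga6 (3 transcripts) at 171 and 204. For single transcripts, the remaining 5 genes lay between 41.1 (Slc25a12) and 67.4 (Dync1i2) in wild type. Metap1d was in the middle of all genes, with 59.0 and 62.1 normalized reads per kb (percentiles 50.9 and 51.4). Dlx1, in contrast, moved from percentile 31.0 to 50.6 and Dlx2 from 59.5 to 91.3. The leading coding transcript of Dlx1 had 15.5 normalized reads per kb in wild type and 59.8 in the inversion.

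Paralogs of the neighbors and their binding or pathway partners, which lie elsewhere in the genome, give their context in the same limbs. Both kinds were counted in 1 list and are called partners here. Of 49 such genes, 48 were in the table, and all of them passed the minimum mean. In this list, 1 gene was at least 2-fold higher (3.99% of all genes) and 0 were lower (0.483% of all genes), with a median log2 ratio of -0.07. The gene that was higher, Itga7, encodes a muscle integrin subunit and had 7 and 18 reads, with an interval that includes 0 (-0.0007 to 2.83). The partners of Itga6 included Itgb1, the beta1 subunit, at 3698 and 3225 normalized reads (log2 ratio -0.20). Itgb4, the beta4 subunit, was at -0.07 and Itga3, a related laminin-binding subunit, at -0.12. Of the laminin chains, the ligands of Itga6, Lama5 (0.42), Lama1 (0.38) and Lamb1 (0.13) were higher with intervals above 0, and Lamc1 was at -0.10. For Metap1d, the cytosolic methionine aminopeptidases Metap1 and Metap2 were at 0.02 and -0.11. Pdf, the peptide deformylase that acts before Metap1d, was at 0.04, and Mtfmt, which formylates the mitochondrial initiator transfer RNA, at 0.56.

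The paralogs of the other neighbors were likewise within 2-fold. Slc25a13, the other aspartate-glutamate carrier, had a log2 ratio of -0.30. The 6 listed partners of Slc25a12, with Slc25a13, were below 0, down to -0.35 for the malate dehydrogenase Mdh2 (46.6% of all genes were above 0). Slc25a12 itself was at 0.02, and the intervals of Slc25a11, Got1 and Got2 include 0. Gorasp1 was at -0.26, Tlk2 at -0.02 and Dync1i1 at 0.16. Cyb561 was at -0.13, and Cyb561d1 and Cyb561d2 both at 0.17. Mettl2 and Mettl6 were both at 0.09. Rbbp7, the partner of Hat1 in its enzyme complex, was at -0.10, and the related Rbbp4 at -0.19.

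Itga6 is a gene of surface ectoderm and endothelium, so markers of these and other cell types were read in both libraries. In these whole distal forelimbs, fewer cells of a type and less RNA per cell cannot be told apart. All 16 surface ectoderm markers had reads, and their sum was 8987 normalized wild-type reads and 8204 inversion reads. In this list 15 of 16 were below 0 (median log2 ratio -0.22), with Lama5 alone above it (0.42). Lama5 and Itgb4 are also in the list of partners of Itga6. The 13 endothelial markers summed to 6360 and 6193, with 10 below 0 and a median of -0.09. The 3 above 0 were Egfl7 (0.67, 95% interval 0.47 to 0.86), Sox17 (0.28) and Ramp2 (0.09), the latter pair with intervals that include 0. Muscle and cartilage markers moved the other way: 4 of 10 muscle markers were at least 2-fold higher (median 0.73), as were 2 of 8 cartilage markers (median 0.28), where the share over all genes was 3.99%. In these lists, 1 muscle marker (Pax3, -0.40) and 2 cartilage markers (Sox9, -0.09, and Sox6, -0.24) were below 0. The part of these cell types in the values of the neighbors was not tested. The median was 0.36 for 8 Schwann cell and nerve markers, -0.17 for 10 red cell markers and -0.03 for 7 macrophage markers. It was -0.13 for the 10 distal limb markers found of 11, with 2 above 0 and 8 below, down to -0.61 for Hoxd13. For a list of 6 limb genes it was -0.02, with 2 above 0 and 4 below. These were Tbx5, Prrx1, Prrx2, Twist1, Tbx4 and Pitx1, and not all of them are particular to forelimbs.

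The promoters of the neighbors were, by their medians, richer in GC than those of all genes, but varied widely. RefSeq promoter windows of GRCm38.p6, each of 300 bases, were found for 9 of the 10 genes, 11 windows in all, with none for Itga6. Their median GC content was 64.3%, against 52.7% over 32851 windows, and their median number of CG pairs was 25, against 7. The windows ran from 50.0% to 83.3% GC and from 6 to 55 CG pairs, and 1 of the 2 windows of Dync1i2 (50.0%, 6 pairs) was below the medians of all windows. The windows of Dcaf17 and Mettl8 overlap, as do the 2 of Dync1i2, so the 11 are not separate stretches. The letters GGGCGG, on either strand, were found in 9 of 11 windows and in 35.7% of all windows. CCAAT was found in 1 of 11 (37.4% of all), and TATAAA in 0 of 11 (13.6% of all). A match of letters describes the window and says nothing of a factor's binding.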

How the data were processed

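RNA-seq of E12.5 distal forelimbs was analysed, with 1 wild-type and 1 inversion library. According to the study's methods and the submitters' processing notes, stranded poly(A) reads were mapped with Bowtie2 to NCBIM37 (mm9) and assigned to transcripts with HTSstation. The deposited signal columns hold, for each transcript, reads divided by a size factor by the authors. A deposited 0.5 stands for a transcript without reads and was taken as 0. The deposited ratio (fold change), log2 fold change and p-value columns are the authors' own comparison and were not used.

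Values were whole multiples of 1.01258 (wild type) and 0.98758 (inversion), so that 100% gave whole reads within 0.01. Genes are sums of the transcripts that share a symbol and chromosome, with a pseudocount of 1, a mean of at least 10 and a threshold of 2-fold. With 1 library per genotype no test was run. All neighbors, each transcript of Itga6 and Metap1d, other transcripts at least 2-fold changed, genes among the neighbors, paralogs and changed partners were named. Mettl8-201, Mettl8-202, Mettl8-206, Hat1-201, Hat1-203, Pdf, Mtfmt, Mdh2, Slc25a11, Got1 and Got2 were chosen after their values were seen. The same holds for Rbbp7, Rbbp4, the laminin chains and the markers named singly. The neighbors and all lists were chosen with earlier results of these data known.

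Positions, types and exons are from GENCODE M21 on GRCm38, matched by transcript identifier for 88.1% of transcripts (57 of the 62), and none was converted. The steps were tested on simulated data. The software was scipy 1.17.1 with pandas 2.3.3 and numpy 2.4.6 in Python 3.11.15, with plots by matplotlib 3.10.9. The alternatives were total and upper quartile scaling, other pseudocounts (5 and 0.1), leaving out the filter or raising it to 100, taking only the transcript of highest mean or only coding transcripts, 1.5-fold and 4-fold thresholds and the counting interval.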

Additional observations from a re-analysis of the deposited data

How the results depend on the processing

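No paired analysis was possible because each genotype has 1 library. Metap1d had a log2 ratio of 1.83 when the transcript with the highest mean, Metap1d-205, stood for the gene, and 0.071 over coding transcripts only. In alternatives chosen after seeing the data, it was 0.38 without the transcripts that hold the stretch kept as exon, and Itga6 was at 0.073 without its pair of higher transcripts. The number of neighbors at least 2-fold higher became 0 over coding transcripts only and at 4-fold, and by the counting interval 2 were higher and 2 lower. Over all genes, 1992 were higher and 1089 lower without the filter, 139 and 12 with the filter at 100, 1577 and 341 at 1.5-fold, 113 and 13 at 4-fold, 412 and 110 over coding transcripts only, and 2802 and 2172 by the counting interval, against 668 and 81. The 1 higher partner gene, Itga7, was lost (0 higher) at 4-fold, with a pseudocount of 5, with that higher filter, with the transcript of highest mean and over coding transcripts only. Over coding transcripts only, 1 partner was at least 2-fold lower, Slc25a13, with 171 and 78 reads (log2 ratio -1.16). Apart from the transcripts or genes that a setting leaves out, the cause was not tested. No value changed sign among those at least 2-fold changed. Under the scalings, pseudocounts and transcript settings, 104 values of other single genes and of transcripts stayed within their counting intervals. The gene ratios of Itga6 and Metap1d, the counts and the medians were not among these 104. Total scaling shifted the log2 ratios by 0.0075 and upper quartile scaling by 0.0554. Depth limits Itga6-205, Metap1d-206, Dlx1as and Slc25a12-203, which have few reads.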
